A study of Mus musculus with 2 samples.

Results

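Interferon induced genes and the interferon inducible GTPases were followed in Treg cells of the mouse colon, the suppressive CD4 T cells whose identity rests on the transcription factor Foxp3. The members were the 44 genes on a list chosen by symbol, out of 55246 loci in the deposited table, and every one was found under exactly 1 row. They were divided into 30 targets of type I interferon and 14 GTPases, of which 7 are guanylate binding proteins (Gbp) and 7 are immunity related GTPases (Irg). Ifi47 is a member of the Irg family and was counted there. All 44 genes had at least 10 reads over both libraries and were tested. The samples were Treg cells from the colon lamina propria of female mice, 1 library from wild type mice (WT) and 1 from mice labelled Exon2KO, in which Foxp3 lacks its second exon. The labels give no age, strain, sorting scheme or number of pooled mice, and both libraries have the same tissue, cell type and sex. With 1 library per genotype no difference can be set against the spread between samples, so every interval below covers counting error in these libraries alone.

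Interferons are cytokines that put cells into an antiviral state. Type I interferons bind the receptor pair Ifnar1 and Ifnar2 and act through a complex that includes Stat2 and Irf9 and binds a DNA element called the ISRE. Interferon gamma binds Ifngr1 and Ifngr2 and acts mainly through a different element, called the GAS. Many targets answer to both, and the Gbp and Irg GTPases, which attack the membranes around intracellular microbes, are best known as targets of interferon gamma.

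Promoter sequence was at hand for 31 of the 44 genes, 21 type I targets and 10 GTPases, from RefSeq on GRCm38.p6, as the 250 bases before and 50 bases after each annotated start. The others were Ifi27, Oas2, Mx1, Mx2, Rtp4, Parp14, Dhx58, Zbp1, Usp18, Gbp4, Gbp6, Gbp8 and Iigp1. Both strands were searched for an ISRE core, defined as GAAA, any 2 bases and GAAA again, and for a GAS, TTCNNNGAA, which reads the same on both strands. The ISRE core was present in 10 of the 21 type I targets and 9 of the 10 GTPases, against 3.44% of all 32851 promoters of this length and 3.99% of the 27025 genes they belong to. The GAS was present in 6 of the 21 and 6 of the 10, against 8.30% of promoters and 9.55% of genes. A gene with several promoters was counted once, as holding the element if any of them did. The elements overlapped each other in Bst2 and Ifitm3, and a match describes the letters and not a bound site.

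The first set shows type I targets with different numbers of ISRE cores, and Irf1, which has a GAS and no ISRE core in this window. Capitals mark the matches to either motif, and each stretch runs 5′ to 3′ on the strand of the gene. The Isg15 stretch is chr4:156200859-156200938 (minus strand), Ifit1 is chr19:34640759-34640838 (plus) and Ifit3 is chr19:34583359-34583438 (plus). The Rsad2 stretch is chr12:26456533-26456612 (minus) and Irf1 is chr11:53769884-53769963 (plus).
Isg15: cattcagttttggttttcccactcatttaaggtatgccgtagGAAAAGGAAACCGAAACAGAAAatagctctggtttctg
Ifit1: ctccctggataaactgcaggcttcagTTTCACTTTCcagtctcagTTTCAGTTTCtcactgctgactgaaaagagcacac
Ifit3: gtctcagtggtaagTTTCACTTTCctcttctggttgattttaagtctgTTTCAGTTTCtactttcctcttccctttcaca
Rsad2: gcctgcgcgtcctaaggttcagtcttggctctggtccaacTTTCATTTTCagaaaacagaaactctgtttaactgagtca
Irf1: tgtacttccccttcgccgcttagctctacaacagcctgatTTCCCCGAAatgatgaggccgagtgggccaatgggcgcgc
Isg15 holds 3 overlapping ISRE cores, Ifit1 and Ifit3 hold 2 separate ones each, and Rsad2 holds 1. The nearest core begins 66 bases before the start in Isg15 and 85 bases before it in Ifit1. In Ifit3 the nearest begins 122 bases before the start.

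The second set shows GTPase promoters, because the Irg genes among them share an arrangement that the choice of genes did not use. The Gbp3 stretch is chr3:142559964-142560043 (plus) and Gbp7 is chr3:142530216-142530305 (plus). The Igtp stretch is chr11:58199476-58199555 (plus) and Irgm2 is chr11:58214867-58214946 (plus). The Tgtp1 stretch is chr11:48992287-48992366 (minus) and Tgtp2 is chr11:49064246-49064325 (minus).
Gbp3: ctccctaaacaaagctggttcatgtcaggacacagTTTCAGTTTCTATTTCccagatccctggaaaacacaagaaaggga
Gbp7: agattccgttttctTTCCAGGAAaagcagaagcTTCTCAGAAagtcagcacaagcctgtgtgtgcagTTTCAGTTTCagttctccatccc
Igtp: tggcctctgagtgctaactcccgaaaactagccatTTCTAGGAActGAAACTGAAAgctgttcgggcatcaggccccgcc
Irgm2: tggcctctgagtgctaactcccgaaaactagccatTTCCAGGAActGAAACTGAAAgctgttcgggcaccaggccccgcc
Tgtp1: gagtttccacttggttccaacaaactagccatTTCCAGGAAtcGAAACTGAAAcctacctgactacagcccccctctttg
Tgtp2: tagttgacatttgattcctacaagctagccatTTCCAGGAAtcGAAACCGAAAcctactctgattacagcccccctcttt
In Igtp, Irgm2, Tgtp1 and Tgtp2 a GAS is followed after 2 bases by an ISRE core. This spacing was noticed in the sequences and then counted over all promoters. It occurs in 5 of 32851 promoters (0.0152%), those 4 genes and Gm12185, a protein-coding gene that overlaps Tgtp1. Compared position by position with no gaps, which counts every base after an insertion as shifted, the Igtp and Irgm2 stretches differ at 2 of 80 bases and the Tgtp1 and Tgtp2 stretches at 22 of 80. The members of each pair are thus not independent of each other. The bases just before the GAS are also the same in all 4 stretches, so these genes may not count as separate cases of the spacing.

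The libraries were of similar size, 16281133 reads in WT and 15412425 in Exon2KO. Together the 44 genes accounted for 0.515% of reads in WT and 0.451% in Exon2KO. Markers of the labelled cell type were present in both. Foxp3 stood at 445 CPM in WT and 1310 in Exon2KO (CPM is the read count relative to the library size, here scaled by TMM). Cd3e stood at 328 and 329 CPM, and Cd4 at 293 and 336. Of the 10 Treg and CD4 T cell markers 5 were below 0 and 5 above; Foxp3 was called higher, while Ikzf2 (540 and 27.5 CPM, log2 ratio -4.29) and Tnfrsf18 (2189 and 727 CPM, -1.59) were called lower. Genes of other cells were also read. Immunoglobulin genes made up 6.49% of reads in WT and 5.93% in Exon2KO, and protein-coding mitochondrial genes 0.551% and 0.903%. The 14 epithelial markers summed to 96.7 CPM in WT and 491 in Exon2KO, with 11 of 14 called higher, and Fabp2 and Aqp8 at 0 reads in WT. The 2 below 0 were Epcam, at 49.8 and 38.1 CPM, and Muc2, at 2.61 and 1.31.

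As a group the 44 genes were lower in the Exon2KO library, by a modest amount. Of the 44, 34 had a log2 ratio (Exon2KO over WT) below 0 and 10 above, and the median was -0.36. Over all 17363 genes tested the median was 0.0035, with 49.7% below 0. Scaled by total counts, 31 of the 44 were below 0, with a median of -0.25, against 40.3% and a median of 0.11 over all genes. In bulk libraries such as these, fewer cells with a transcript and less RNA per cell cannot be told apart. Each gene was compared by an exact binomial test of its reads in the 2 libraries, adjusted by Benjamini-Hochberg over all genes, a test that compares these libraries and not the genotypes. A gene was called when the adjusted p was below 0.05 and the ratio was at least 2-fold.

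Of the 44 genes, 4 were called lower (9.09%) and 0 higher, against 6.61% of all genes called lower and 7.2% called higher (13.8% in either direction). The share of 2-fold calls among the members was close to that of the table as a whole. With the adjusted p alone, at any fold, 29 of the 44 were lower, 4 were higher and 11 did not pass; with total counts 24 were lower and 8 higher. Of all genes, 21.9% were lower and 19.4% higher by that rule (41.3% in either direction). Because deeply read genes pass that test more easily, the same was counted among genes with at least 100 reads in 1 library. There 26 of 36 members (72.2%) were lower, against 30.0% of 9665 genes, and 2 of 36 were called lower at 2-fold, against 4.35%.

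The type I targets and the GTPases had nearly the same median, -0.38 and -0.36. The type I targets ran from -1.91 to 0.56, with 4 called lower and 0 higher, 18 lower and 1 higher at any fold (15 and 5 with total counts), and 11 that did not pass. The GTPases ran from -0.95 to 0.31, with 0 called, 11 lower and 3 higher at any fold (9 and 3 with total counts). Among those with a summed count of 1000 or more, the 14 type I targets ran from -0.62 to 0.15 and the 13 GTPases from -0.95 to 0.31, so the wider range of the type I targets lay in genes with fewer reads. The summed levels were 2852 CPM in WT and 2416 in Exon2KO for the type I targets, and 2490 and 1935 for the GTPases.

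**Figure D1:**
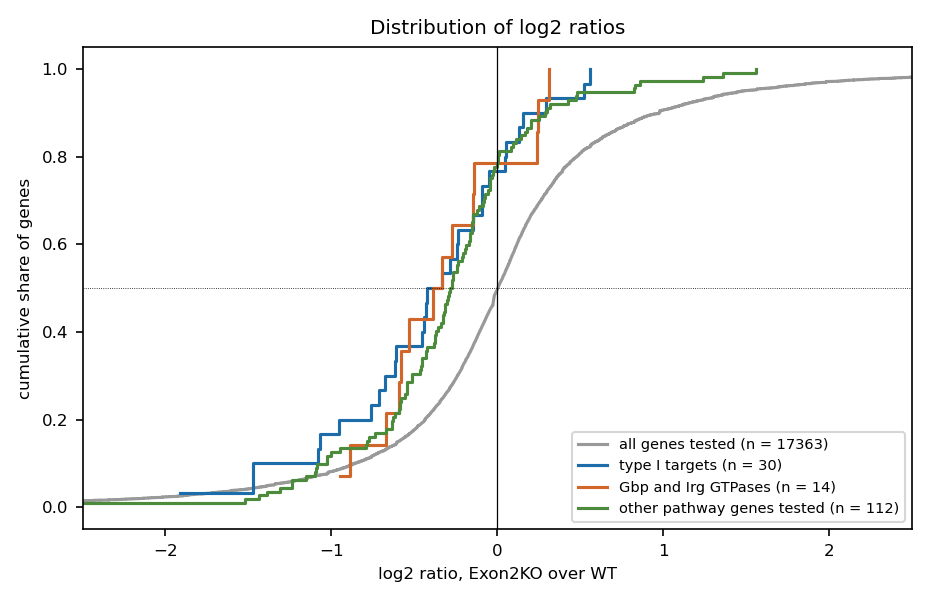
Cumulative share of genes (y axis) by log2 ratio of Exon2KO over WT (x axis) for all genes tested, the type I targets, the Gbp and Irg GTPases and the other genes of the pathway. The curves of the type I targets and the GTPases lie to the left of the curve of all genes and cross 0 with 23 of 30 and 11 of 14 genes below it; the x axis stops at 2.5 in each direction.

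**Figure D2:**
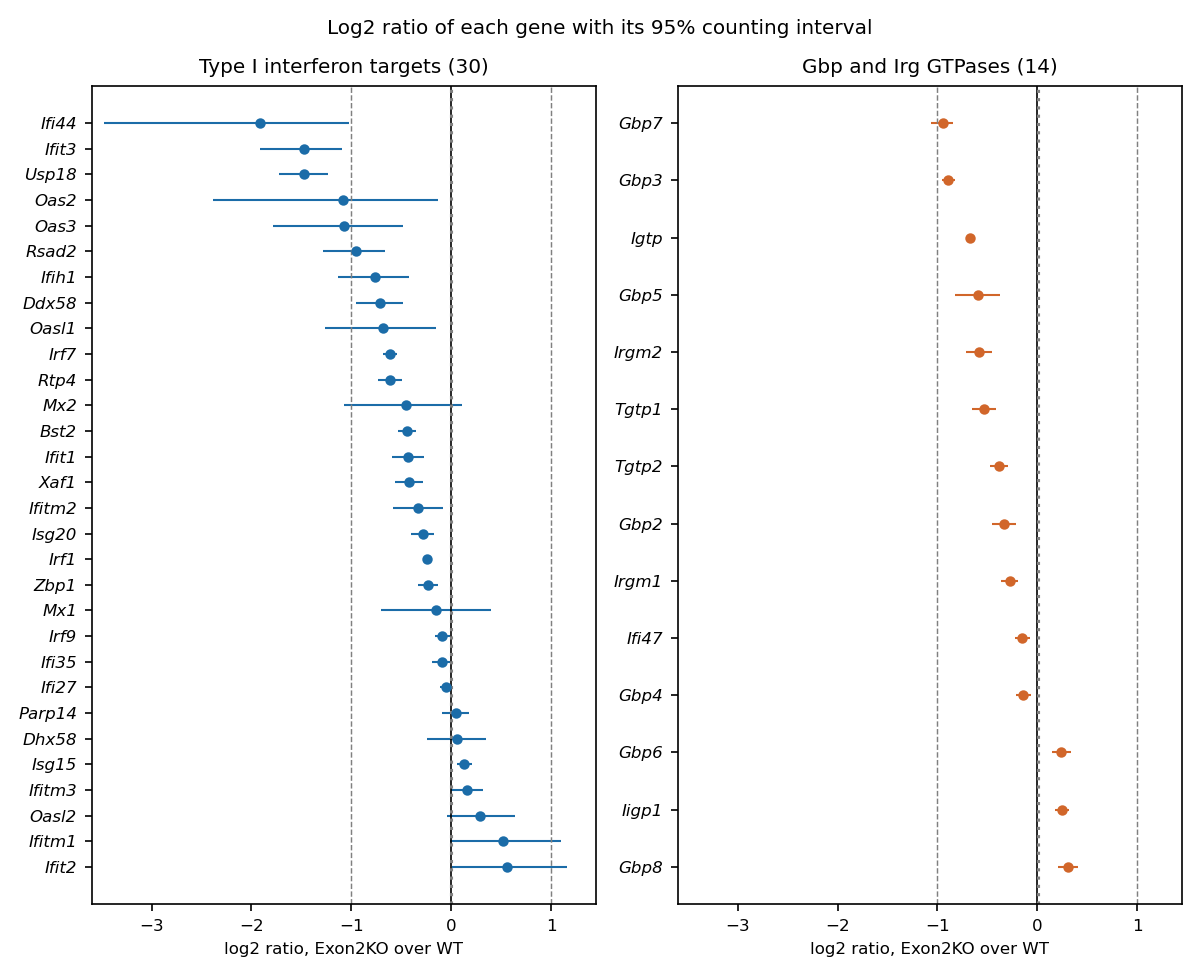
Log2 ratio of each gene (points) with its 95% Clopper-Pearson counting interval (bars), the type I targets on the left and the GTPases on the right; dashed lines mark 2-fold, the solid line 0 and the dotted line the median of all genes. Ifi44, Ifit3 and Usp18 have intervals wholly beyond 2-fold, and no GTPase does.

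The lowest ratios among the antiviral effectors belonged to genes with few reads. For Ifi44 (ENSMUSG00000028037, chromosome 3, 151730922 to 151749960, GRCm38) there were 35 reads in WT and 8 in Exon2KO, or 2.23 and 0.50 CPM. The Exon2KO library was low, at a log2 ratio of -1.91 (95% interval -3.48 to -1.02), and Ifi44 was called. Oas3, one of the enzymes that make 2′-5′ oligoadenylate and so switch on RNase L, had 66 and 31 reads. Its log2 ratio was -1.07 (-1.78 to -0.48), and it was called, a call lost with total counts (-0.97) and with an assumed spread between samples (BCV) of 0.2. Its relative Oas2 had 25 and 11 reads, at -1.08 (-2.38 to -0.14), and was not called because its adjusted p was 0.0585 in the exact binomial test.

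Ifit1, Ifit2 and Ifit3 lie in a cluster on chromosome 19 and encode proteins that bind foreign RNA, and their ratios differed. For Ifit3 (ENSMUSG00000074896, chromosome 19, 34583531 to 34588731) the counts were 194 in WT and 70 in Exon2KO, or 12.4 and 4.38 CPM. That is 2.82-fold lower in Exon2KO, at -1.47 (-1.91 to -1.10), and Ifit3 was called. Ifit1 had 761 and 576 reads, at -0.43 (-0.59 to -0.27). Ifit2 had 44 and 67 reads, at 0.56, and did not pass the adjusted test. The number of Ifit3 reads per Ifit2 read was 4.41 in WT and 1.04 in Exon2KO. That ratio does not depend on library scaling but comes from the same counts. On the log2 scale it differed by -2.08 (95% interval -2.75 to -1.40). Against Ifit1 the difference was -1.07 (-1.49 to -0.64). Ifit3 has a near copy, Ifit3b, with 30 and 2 reads, so the division of reads between them is uncertain.

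Rsad2, which encodes viperin, had 255 and 133 reads, or 16.2 and 8.32 CPM. At -0.96 (-1.28 to -0.66) it lay just short of 2-fold. Rtp4 had 1378 and 917 reads at -0.61 (-0.74 to -0.49), and Bst2, which encodes the virion tether tetherin, had 2269 and 1698 at -0.44 (-0.54 to -0.35). Oasl1, a relative of the Oas enzymes, had 75 and 47 reads at -0.68 (-1.26 to -0.16). Xaf1 was at -0.42, Ifitm2 at -0.33 and Isg20, an RNA exonuclease, at -0.29, each passing the adjusted test at a fold below 2.

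Some antiviral genes hardly differed, abundant ones among them. Isg15, a ubiquitin-like protein that is joined to other proteins, had 2765 reads in WT and 3082 in Exon2KO, or 176 and 193 CPM. At 0.13 (0.06 to 0.20) it was, with TMM scaling, the only type I target that was higher in the adjusted test. Ifi27 had 5681 and 5579 reads at -0.05 (-0.11 to 0.0007), and Ifi35 had 1604 and 1536 at -0.09 (-0.19 to 0.01); both ratios were above 0 when libraries were scaled by total counts. Parp14 had 872 and 916 reads at 0.04 (-0.09 to 0.18). These intervals exclude a 2-fold difference in these 2 libraries.

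Ifitm1, Ifitm2 and Ifitm3 encode membrane proteins that hinder virus entry, and as a set they summed to 60.5 CPM in WT and 62.3 in Exon2KO. Ifitm3 had 604 and 685 reads at 0.15 (-0.01 to 0.32) and Ifitm1 had 48 and 71 at 0.52 (-0.01 to 1.10). Epithelial and endothelial cells also make Ifitm transcripts. Most epithelial markers were higher in Exon2KO as given above. The 9 endothelial markers summed to 67.0 CPM in WT and 73.4 in Exon2KO, with 5 called higher and Cdh5 at 0 reads in WT. Most of the endothelial sum was Pecam1, at 58.4 and 52.2 CPM, and each of the 5 called markers had a lower level than Pecam1 in both libraries. Their part in the Ifitm values was not tested. Mx1 had 60 and 55 reads at -0.15 (-0.71 to 0.40), Mx2 had 60 and 44 at -0.46 (-1.07 to 0.11), and Oasl2 had 132 and 165 at 0.29 (-0.04 to 0.64). None of these 3 passed the test, and the intervals of Mx1 and Oasl2 exclude a 2-fold difference. Mx1 and Mx2 encode dynamin-like antiviral GTPases, and the deposited table lists Mx2 as a polymorphic pseudogene.

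The sensors of foreign nucleic acid were low in Exon2KO except 1. Ifih1, which encodes the long double-stranded RNA sensor MDA5, had 183 and 109 reads, or 11.7 and 6.82 CPM, at -0.76 (-1.13 to -0.42). Ddx58, which encodes RIG-I, had 397 and 246 reads at -0.71 (-0.95 to -0.48). Dhx58, which encodes the related LGP2, had 188 and 199 reads at 0.05 (-0.24 to 0.35). Zbp1, a sensor of Z-form nucleic acid, had 1694 and 1467 reads at -0.23 (-0.34 to -0.13). None of the 4 reached 2-fold, and 3 were lower at any fold.

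The regulators were all lower in Exon2KO at any fold with TMM scaling, Irf9 barely so. Usp18 (ENSMUSG00000030107, chromosome 6, 121245906 to 121270917) encodes the enzyme that removes Isg15 from proteins and blocks signalling at Ifnar2, and is itself an interferon target. It had 520 reads in WT and 190 in Exon2KO, or 33.1 and 11.9 CPM, 2.79-fold lower in Exon2KO. Its log2 ratio was -1.47 (-1.73 to -1.24), and it was the called member with the most reads. Usp18 reads per Isg15 read went from 0.188 in WT to 0.0616 in Exon2KO, a log2 difference of -1.61 (-1.86 to -1.36).

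Irf7, the factor that amplifies type I interferon production, had 4004 and 2662 reads, or 255 and 166 CPM, at -0.62 (-0.69 to -0.54). Irf9, the DNA-binding partner of Stat2, had 2987 and 2858 reads at -0.09 (-0.16 to -0.02), above 0 under scaling by total counts. Irf7 reads per Irf9 read went from 1.34 to 0.931, a log2 difference of -0.53 (-0.63 to -0.42). Irf1, a factor induced early by interferon gamma, had 15185 and 13048 reads, the most of any member, at -0.25 (-0.28 to -0.21). Irf7 overlaps Phrf1 and Irf9 overlaps Rnf31, so reads in shared sequence are uncertain.

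**Figure D3:**
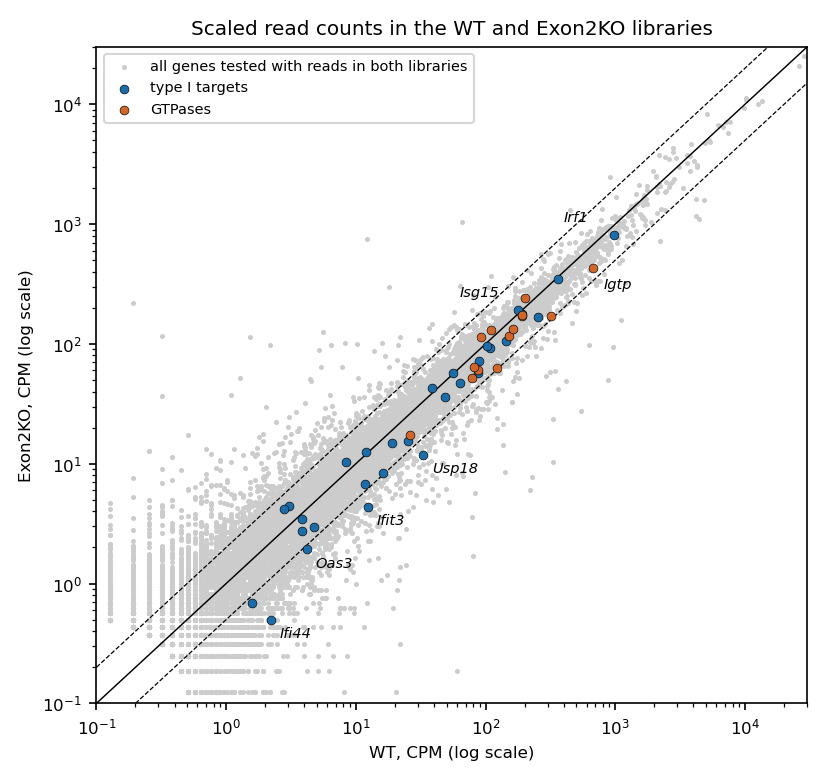
Scaled counts (CPM) of each gene in WT (x axis) and Exon2KO (y axis), both axes logarithmic, with all tested genes that had reads in both libraries in grey; the solid line is equality and the dashed lines are 2-fold. Usp18, Ifit3, Ifi44, Oas3 and Oas2 (not called) lie below the lower dashed line among the type I targets, while Irf1 and Igtp, the most deeply read members, lie inside the lines.

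Among the Gbp members the low ratios lay on chromosome 3. Mouse Gbp genes stand in a cluster on chromosome 3 and another on chromosome 5. The 4 members on chromosome 3 summed to 548 CPM in WT and 317 in Exon2KO, and each was lower at any fold. Gbp3 (ENSMUSG00000028268, 142560026 to 142573209) had 4992 and 2745 reads at -0.89 (-0.96 to -0.82). Gbp7 (142530342 to 142550149) had 1919 and 1012 reads at -0.95 (-1.06 to -0.84). Gbp5, known for promoting inflammasome assembly, had 412 and 278 reads at -0.59 (-0.82 to -0.37), and Gbp2 had 1276 and 1033 at -0.33 (-0.45 to -0.21).

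The 3 members on chromosome 5 summed to 395 CPM in WT and 419 in Exon2KO. Gbp8 had 1435 and 1814 reads at 0.31 (0.21 to 0.41), Gbp6 had 1740 and 2096 at 0.24 (0.15 to 0.33), and Gbp4 had 3018 and 2789 at -0.14 (-0.22 to -0.07). Reads of the chromosome 3 members per read of the chromosome 5 members went from 1.39 in WT to 0.757 in Exon2KO, a log2 difference of -0.88 (-0.95 to -0.81). This contrast between the clusters was seen in these values and is described, not tested. It was not shared by all Gbp genes, since Gbp4 was lower at any fold with TMM scaling, though at -0.03 with total counts. Gbp genes that were no members went both ways. Gbp2b, on chromosome 3, had 495 and 213 reads, was called, and stood at -1.24 (-1.48 to -1.01). On chromosome 5, Gbp9 and Gbp10 were at -0.34 and -0.37, and Gbp11, with 13 and 34 reads, was called higher at 1.24. The calls of Gbp2b and Gbp11 were lost with an assumed BCV of 0.2. Gbp4, Gbp8 and Gbp9 overlap on the same strand and the Gbp genes of chromosome 5 are close copies, so their counts are uncertain.

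The 6 Irg members on chromosome 11 were each lower in Exon2KO at any fold with TMM scaling. With total counts Ifi47 was at -0.04, and 9 of the 14 GTPases were lower by that rule. For Igtp (ENSMUSG00000078853, chromosome 11, 58199556 to 58207591) the counts were 10617 in WT and 6805 in Exon2KO, or 676 and 426 CPM. This was 1.59-fold lower in Exon2KO, at -0.67 (-0.71 to -0.62). Irgm2, its neighbour with the matching promoter stretch shown above, had 1232 and 837 reads at -0.58 (-0.71 to -0.46). Irgm1 had 2535 and 2134 reads at -0.27 (-0.36 to -0.19). These 3 are regulators that keep the other Irg proteins off the cell's own membranes.

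Tgtp1 had 1382 and 971 reads at -0.54 (-0.66 to -0.42) and Tgtp2 had 2379 and 1856 at -0.38 (-0.47 to -0.30). They are close copies, and Igtp and Irgm2 overlap on the same strand, so the reads of each pair may be wrongly divided. Ifi47 had 2982 and 2742 reads at -0.15 (-0.22 to -0.07). Gm12185, which shares the promoter spacing, had 124 and 112 reads at -0.17 (-0.56 to 0.21). Other GTPase genes of chromosome 11 that were no members did not share 1 direction. Gm12250 was at -0.54 (-0.70 to -0.39), 9930111J21Rik1 at -0.17 (-0.59 to 0.24, not passing) and 9930111J21Rik2, with 199 and 273 reads, at 0.43 (0.16 to 0.70), which was higher at any fold. Iigp1, an effector Irg protein that stands on chromosome 18, had 3164 and 3827 reads, or 202 and 239 CPM. At 0.25 (0.18 to 0.32) it was the only Irg member higher in Exon2KO. Reads of the 6 chromosome 11 members per Iigp1 read went from 6.68 to 4.01, a log2 difference of -0.74 (-0.81 to -0.66).

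**Figure D4:**
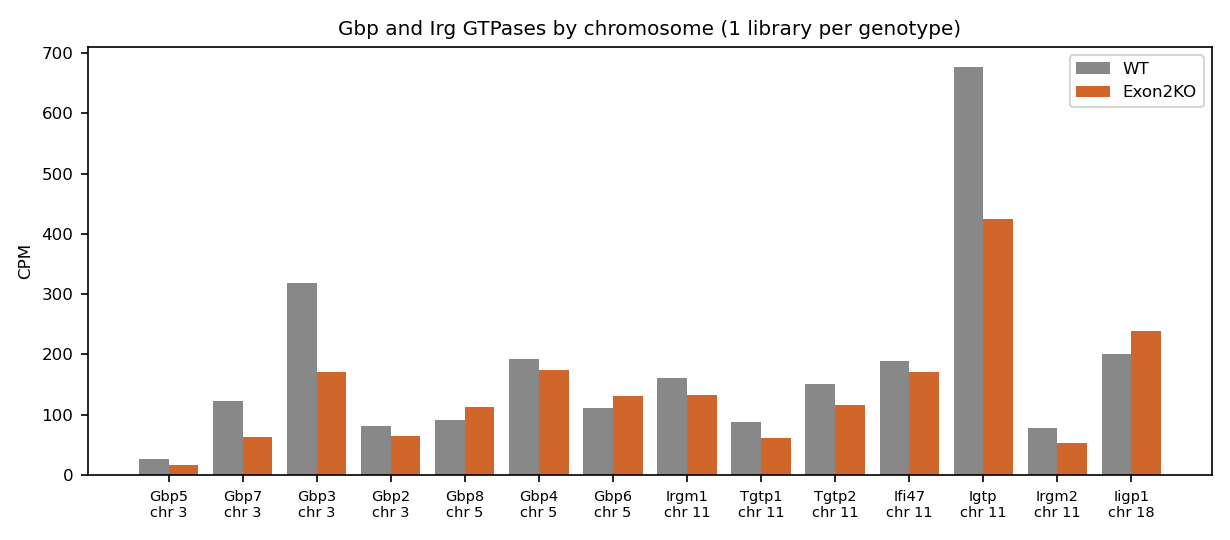
Level in CPM (bars, y axis from 0) of each GTPase in the WT and Exon2KO libraries, ordered by family and chromosome, with 1 library per bar and no error bar. The Gbp members of chromosome 3 and the Irg members of chromosome 11 are lower in Exon2KO, while Gbp8, Gbp6 and Iigp1 are higher.

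Levels between genes were compared per length, with the authors' deposited FPKM. In WT the highest was Igtp at 333 FPKM, followed by Ifi27 at 246, Irf1 at 242, Isg15 at 232 and Bst2 at 159. In Exon2KO the order was Isg15 at 256, Ifi27 at 239, Igtp at 212, Irf1 at 206 and Bst2 at 118. The lowest levels in WT were Oas2 at 0.356, Ifi44 at 0.362 and Oas3 at 0.592 FPKM. The members thus spanned a wide range, and no replicate tells which neighbours in this order differ.

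Among the type I targets the scarce genes had the lower median, and also the widest spread of log2 ratios, from Ifi44 at -1.91 to Ifit2 at 0.56. The 14 with at least 1000 reads over both libraries had a median log2 ratio of -0.24 and 0 calls, and the 16 with fewer had a median of -0.70 and 4 calls. This limit was chosen after the values were seen. Across the 30 genes, Spearman's rho between the mean FPKM and the log2 ratio was 0.35, and across the 14 GTPases it was 0.14. All points come from the same 2 libraries, and ratios of genes with few reads scatter more widely from counting alone.

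**Figure D5:**
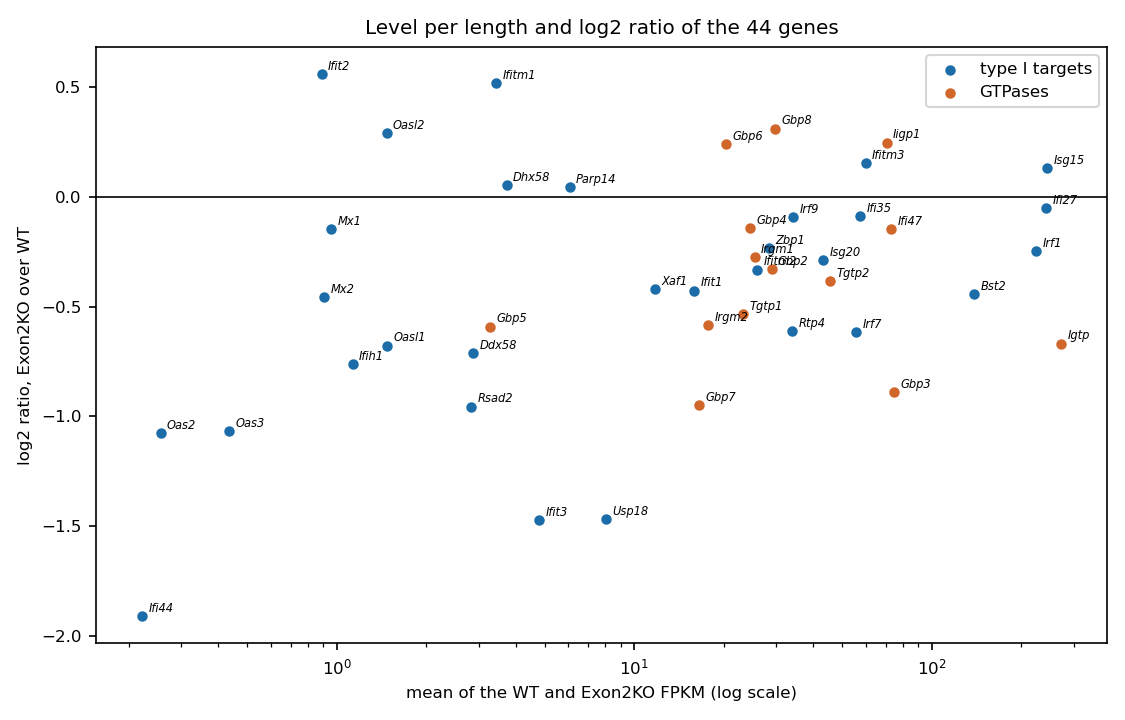
Log2 ratio of Exon2KO over WT (y axis) against the mean deposited FPKM of both libraries (x axis, logarithmic) for each of the 44 genes. The called genes Ifi44, Oas3, Ifit3 and Usp18 have mean levels below those of Isg15 (log2 ratio 0.13), Ifi27 (-0.05), Irf1 (-0.25) and Igtp (-0.67). The highest ratios, of Ifit2 and Ifitm1, also belong to genes with few reads.

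The promoter elements gave a further way to group the 31 matched genes. The 19 with an ISRE core had a median log2 ratio of -0.58 (from -1.47 to 0.15), and the 12 without one had a median of -0.20 (from -1.91 to 0.56). The 8 genes with both elements were Bst2, Ifitm3, Gbp5, Gbp7, Igtp, Irgm2, Tgtp1 and Tgtp2, with a median of -0.56. The ranges overlap almost wholly, with Isg15 and its 3 cores at 0.13 and Ifi44 with none at -1.91.

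Other genes of the pathway had a median on the same side of 0 and a wider range. The lists hold 139 genes in the table that are no members, of which 112 were tested, with a median log2 ratio of -0.28 (from -3.02 to 1.56). Of these, 3 were called higher and 14 lower, against 7.2% and 6.61% of all genes. At any fold 67 were lower and 7 higher, against 21.9% and 19.4%. Of the 112, 95 had at least 100 reads in 1 library. Among all genes read that deeply 30.0% were lower and 23.7% higher. Apart from Ifng, almost no interferon transcript was read. Of 21 ligand genes 16 had 0 reads in both libraries, where a count of 0 allows up to 0.191 CPM in WT and 0.188 in Exon2KO. Ifng alone was tested, with 91 and 85 reads at -0.12 (-0.57 to 0.32). It did not pass the test, and this interval excludes a 2-fold difference.

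Ifnar1, the receptor chain used by all type I interferons, had the largest ratio in size among the 5 tested receptor genes. For Ifnar1 (chromosome 16, 91485238 to 91507441) the counts were 3174 in WT and 1524 in Exon2KO, or 202 and 95.3 CPM. It was called lower at -1.08 (-1.17 to -0.997). With total counts its ratio was -0.98, short of 2-fold, and it was not called with an assumed BCV of 0.2. Its partner Ifnar2 had 1008 and 851 reads at -0.27 (-0.40 to -0.14). The interferon gamma receptor genes were at -0.27 (Ifngr1, with 63309 and 53528 reads) and -0.21 (Ifngr2). Il10rb, shared by the receptors for interferon lambda and IL-10, was at -0.55, and all 5 were lower at any fold. Ifnlr1, with 0 and 3 reads, was not tested.

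Stat2, a transducer of type I signals, had 1156 and 1062 reads at -0.15 (-0.27 to -0.03). Of the 11 JAK-STAT genes and brakes, 0 were called (13.8% of all genes were), 7 were lower and 0 higher at any fold. All 11 had at least 100 reads in 1 library, where 30.0% of all genes were lower and 23.7% higher. Of 59 tested further interferon stimulated genes, 9 were called lower and 2 higher, against 6.61% and 7.2% of all genes. Their median was -0.32. Those called with at least 100 reads in 1 library were Oas1a (-1.09), Sp110 (-1.39), Ifi213 (-1.24), Ifit1bl1 (-1.44), Ifi208 (-1.10), Cmpk2 (-1.01) and Tdrd7 (-1.15), all lower. With an assumed BCV of 0.2 Sp110 and Ifit1bl1 kept the call and the others lost it, and Cmpk2 also fell short of 2-fold with DESeq2 size factors (-0.99) and a prior count of 5 (-0.97). Cmpk2 is the neighbour of Rsad2 and encodes a nucleotide kinase of mitochondria. Of 3 chemokine genes typical of interferon gamma, 0 passed the test, and Cxcl10 had 7710 and 7898 reads at 0.01 (-0.04 to 0.05).

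Macrophages and dendritic cells also express many of these genes. Their 17 markers summed to 63.2 CPM in WT and 70.9 in Exon2KO, with 0 called, and Itgax was at 0 reads in both libraries and Clec9a in Exon2KO. The 12 B and plasma cell markers summed to 63446 and 54104 CPM, with 3 called lower and 1 higher. The 10 CD8 and natural killer markers summed to 3120 and 4004 CPM, with 3 called lower, 1 higher, Ncr1 at 0 reads in WT and Eomes at 0 in Exon2KO. Most of that sum was Gzmb (2772 and 3981 CPM), which activated T cells also make, while Gzma was at 328 and 10.3 CPM and was called lower. The 8 neutrophil markers summed to 1.40 and 2.38 CPM and the 10 fibroblast and muscle markers to 21.7 and 25. The part of these cells in the ratios was not tested.

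The authors' deposited table gives the same directions for the members. It lists a log2 fold change below 0 for 34 of the 44 genes, and an adjusted p below 0.05 for 3, Usp18 (0.0198), Ifit3 (0.0312) and Ifi44 (0.0487), against 2.21% of its 22447 genes lower and 2.37% higher. Computed from the same counts, and so not independent of that table, the edgeR exact test with an assumed BCV of 0.2 called these 3 members and not Oas3. With an assumed BCV of 0.4 it called 0 members.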

How the data were processed

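The members and gene lists were chosen with earlier results of these data known. Per the submitters' processing notes, HISAT2 2.0.5, StringTie 1.3.3b, featureCounts 1.5.0-p3 and DESeq2 1.16.1 were used on build mm10. Strand use is not given in the sources used here. The deposited file gives raw read counts per gene (the input to every ratio here), FPKM (used for levels), a scaled count signal (not used) and a log2 fold change, p-value and adjusted p-value per gene. Gene length, coordinates and symbols are those of the file; 43 of 44 members have identical coordinates in GENCODE M21, and 21 overlap another gene there.

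Library sizes were scaled by TMM (edgeR 4.0.16, R 4.3.3; WT factor 0.964, Exon2KO factor 1.04). A quasi-likelihood fit is not possible without replicates. Genes with 10 or more reads, summed over WT and Exon2KO, were tested by a 2-sided exact binomial test (doubled smaller tail) with Benjamini-Hochberg adjustment over 17363 genes, and called below 0.05 at 2-fold or more. Log2 ratios use a prior count of 2; 95% Clopper-Pearson intervals carry no prior, and those of ratios between members are normal intervals of the log odds ratio. Ratios between members use the same counts as the single ratios and give no separate support. Floors are 3 reads. The reads carry no molecular identifiers and do not stand for separate molecules, so intervals and floors cover counting error only. The code was tested on simulated data. Every member was named; of other pathway genes, the tested ligands and receptors, Stat2 and those called with at least 100 reads in 1 library, except some results that are not reported here, while Gbp9, Gbp10, Gbp11, Gm12250, 9930111J21Rik1, 9930111J21Rik2, Ifit3b, Gm12185 and Cxcl10 were chosen after their values were seen. Alternatives covered scaling, read filter, fold threshold, prior count, assumed BCV and the placing of Ifi47; those for pathway genes outside the members were chosen after seeing the data. Python 3.11.15, numpy 2.4.6, pandas 2.3.3, scipy 1.17.1, statsmodels 0.14.6 and matplotlib 3.10.9 were used.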

Additional observations from a re-analysis of the deposited data

How the results depend on the processing

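Scaling by total counts moved the median of all genes by 0.105, the GTPase median to -0.25 and the count of members below 0 from 34 to 31 of 44; Ifi27 (0.053), Ifi35 (0.017) and Irf9 (0.015) changed sign, and Oas3 (-0.97) lost its call. The other scalings and the prior counts changed no call or sign among the members. At a BCV set to 0.2 in edgeR there were 579 genes higher and 536 lower, and this ended the call of Oas3; with 0.4 there were 86 and 78 and 0 type I targets. A minimum of 50 reads left 649 genes higher and 685 lower, with 3 type I targets, since Ifi44 was no longer tested. A fold threshold of 1.5 gave 1847 genes lower, with 10 type I targets and 4 GTPases; a threshold of 4 gave 499 higher, 408 lower and 0 type I targets. Counting Ifi47 with the type I targets changed no call. Of 17 pathway genes outside the members, 10 were called; Ifnar1, Oas1a, Ifi208 and Cmpk2 were among those that lost that call with total counts, 8 of the 10 did with a BCV of 0.2 and all 10 with 0.4. Depth limits genes under about 100 reads to wide intervals. No paired analysis was possible because both genotypes have only 1 library, so none could be left out either.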

Other observations

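Most factors and adaptors that act before interferon is made were lower in Exon2KO at any fold, and the genes given here were chosen after their values were seen. Of the 9 tested IRF genes outside the members 6 were lower and 1 was higher at any fold. Irf4, a factor of activated lymphocytes, had 773 reads in WT and 1432 in Exon2KO, at 0.86 (0.74 to 0.99), while Irf8 had 641 and 421 at -0.63 (-0.81 to -0.45). Among 13 tested sensors and adaptors 9 were lower at any fold and 1 was higher. Over all genes 21.9% were lower and 19.4% higher by that rule. Among those with at least 100 reads in 1 library the shares were 30.0% and 23.7%. The DNA sensor gene Mb21d1, which encodes cGAS, had 60 and 29 reads at -1.03 (-1.77 to -0.41) and Tlr7, a sensor of single-stranded RNA, had 46 and 15 at -1.52 (-2.59 to -0.78), and both were called lower, but not with an assumed BCV of 0.2. Tmem173, which encodes STING, had 2159 and 1592 reads at -0.47 (-0.56 to -0.37). Ticam1, the adaptor of Tlr3, had 111 and 203 reads at 0.83 (0.50 to 1.19). Outside these lists, the JAK-STAT brakes Socs1 and Socs3 were at -0.62 (-0.71 to -0.53) and -0.63 (-0.71 to -0.56). Of the same JAK-STAT list, Ptpn6 was at -0.59, while Pias1 (-0.09), Ptpn2 (-0.0015) and Ptpn11 (0.17) did not pass the test.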
